A study of Mus musculus with 8 samples.

Results

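The genes described here are 34 markers of the main non-parenchymal cell types of the liver, the macrophages, the stellate cells and the endothelial cells that lie beside the hepatocytes, measured in mouse livers whose hepatocytes lack the transcription factors STAT5a and STAT5b. They were chosen as a list of symbols, 13 for macrophages (Mpeg1 to Timd4), 10 for stellate cells (Col1a1 to Timp1) and 11 for endothelial cells (Stab1 to Tek), and all 34 were found among the 24197 genes listed. The list was drawn up with earlier results of these data known, so the shares of members given below describe it and do not test it. The question was whether transcripts of cells that keep STAT5 differed when the hepatocytes around them had lost it.

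The livers came from 8 to 12 week old mice in 4 groups. Knockout males and knockout females carried an albumin promoter-driven Cre transgene (Alb-Cre, from an FVB/N line) together with a floxed Stat5a-Stat5b locus. Control males and control females carried the floxed locus, and the labels give the same mixed C57BL/6 x 129J background for all 4 groups. The FVB/N contribution that came with Cre and the deletion itself therefore cannot be told apart. Each group had 2 libraries, each made from pooled livers. How many animals a pool holds is not in the labels, so p-values rest on the spread between pools. The titles also carry a code of unstated meaning, G137 on both knockout female libraries, G138 on both control female libraries and G140 on both control male libraries, with 1 knockout male library under G138 and 1 under G140. In females the code and the genotype cannot be told apart. Males and females of the same genotype share no code, so the code and the sex cannot be told apart either, which holds for every comparison of the sexes below.

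Albumin is made by hepatocytes, so the Cre deletes in those cells, and the cell types described here keep both genes. Kupffer cells, the resident macrophages of the sinusoids, take up bacteria, dying cells and iron-laden red cells and are the main makers of complement C1q in the liver. Stellate cells store vitamin A as retinyl esters and, when activated, lay down collagen. Sinusoidal endothelial cells line the fenestrated capillaries and clear waste molecules through scavenger receptors.

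Expression is given as FPKM, reads scaled to the length of the transcript and to the library total. The deposited table holds the mean FPKM of each group, from which the FPKM and reads of each library were recovered, and the libraries of a group are known only as the deeper and the shallower one. Pairs of values below are given with the deeper library first. Library totals ran from 6192515 in the shallower control male library to 34651386 in the deeper control female library. Stat5a, a targeted gene, had 0.130 and 0.227 FPKM in knockout males against 0.600 and 1.16 in control males, and 0.499 and 0.120 FPKM in knockout females against 0.920 and 0.804 in control females. Stat5b, the other targeted gene, had 0.684 and 1.03 FPKM in knockout males against 1.95 and 3.41 in control males, and 1.77 and 1.11 FPKM in knockout females against 3.88 and 2.90 in control females. A gene was called where the authors' adjusted p was under 0.05. Among 12980 genes with at least 10 reads in at least 2 libraries, the median FPKM ratio on the log2 scale was 0.14 between knockout and control females and 0.13 between control males and control females, a shift of scale that the authors' ratios, with medians of 0.00 and -0.02, do not carry. Of the members, 33 were among those genes, all but Timp1. Defining transcripts of each cell type were present in every library, with at least 8.40 FPKM of Clec4f, 1.53 FPKM of Lrat and 5.97 FPKM of Stab2.

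The promoters of the members called in any comparison are shown, so that they can be read beside the values that follow. C1qa, which was called, has no entry in the RefSeq promoter table used (GRCm38.p6), and the neighbouring genes of the other C1q chains, C1qb and C1qc, are shown too. Each line is the 250 bases before the annotated start, 5′ to 3′ on the gene's strand, and capitals mark matches on either strand to TTCNNNGAA (the STAT motif), GAGGAA (the PU box bound by the macrophage factor PU.1) or TATAAA (the TATA box).
Mpeg1 promoter (chr19:12460520-12460769, plus strand): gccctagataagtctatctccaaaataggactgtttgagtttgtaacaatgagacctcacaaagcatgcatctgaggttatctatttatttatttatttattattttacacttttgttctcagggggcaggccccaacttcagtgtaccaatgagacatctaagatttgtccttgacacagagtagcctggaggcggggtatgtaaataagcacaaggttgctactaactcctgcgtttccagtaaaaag
Lyz2 promoter (chr10:117282273-117282522, minus strand): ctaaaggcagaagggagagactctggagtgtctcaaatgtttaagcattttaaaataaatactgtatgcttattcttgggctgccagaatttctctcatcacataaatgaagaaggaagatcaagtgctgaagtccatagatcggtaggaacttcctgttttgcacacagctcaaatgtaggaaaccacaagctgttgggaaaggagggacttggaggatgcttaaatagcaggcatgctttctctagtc
C1qb promoter (chr4:136886201-136886450, minus strand): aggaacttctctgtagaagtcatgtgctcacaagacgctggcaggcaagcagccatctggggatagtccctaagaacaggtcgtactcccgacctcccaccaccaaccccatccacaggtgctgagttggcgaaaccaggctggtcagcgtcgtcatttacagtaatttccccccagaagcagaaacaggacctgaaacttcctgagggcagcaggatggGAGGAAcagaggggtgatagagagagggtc
C1qc promoter (chr4:136892915-136893164, minus strand): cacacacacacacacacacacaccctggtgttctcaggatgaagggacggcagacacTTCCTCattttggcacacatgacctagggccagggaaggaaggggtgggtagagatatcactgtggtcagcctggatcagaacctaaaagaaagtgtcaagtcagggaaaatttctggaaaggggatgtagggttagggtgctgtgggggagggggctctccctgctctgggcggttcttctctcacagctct
Col3a1 promoter (chr1:45311288-45311537, plus strand): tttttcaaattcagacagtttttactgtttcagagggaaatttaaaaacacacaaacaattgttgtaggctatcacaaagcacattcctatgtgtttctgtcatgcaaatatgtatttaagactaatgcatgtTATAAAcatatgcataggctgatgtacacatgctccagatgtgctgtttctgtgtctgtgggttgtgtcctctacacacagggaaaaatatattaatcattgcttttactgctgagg
Lrat promoter (chr3:82903975-82904224, minus strand): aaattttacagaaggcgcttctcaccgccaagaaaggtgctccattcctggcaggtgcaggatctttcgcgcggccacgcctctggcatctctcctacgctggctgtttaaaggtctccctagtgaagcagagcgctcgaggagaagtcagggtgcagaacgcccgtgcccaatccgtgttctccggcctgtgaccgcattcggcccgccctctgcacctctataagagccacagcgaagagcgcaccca
Among the 25 members with an entry, 0 held TTCNNNGAA, against 7.18% of 27025 genes. GAGGAA stood in 6 of 11 macrophage, 1 of 7 stellate and 2 of 7 endothelial promoters, against 23.1% of all genes. C1qb held it starting 30 bases before the annotated start, C1qc starting 193 bases before it, and the promoters of Mpeg1 and Lyz2 held none of the 3 motifs. TATAAA stood in 2 of the 25, among them Col3a1, against 12.97% of all genes. The letters of this window are a description and were not tied to binding.

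Mpeg1, which encodes perforin-2, a pore-forming protein with which macrophages attack ingested bacteria, had the largest ratio between genotypes in each sex among the 33 members with enough reads and was the only member called in both sexes. It had 39.97 and 35.97 FPKM in knockout males, against 6.03 and 6.44 FPKM in control males. In females it had 14.9 and 35.8 FPKM in knockouts, against 6.48 and 4.74 FPKM in controls. No knockout library overlapped a control library in either sex, while the knockout female pools differed from each other more than the knockout male pools did. The authors' deposited table gives Mpeg1 as 6.17-fold higher in knockout males than in control males (adjusted p = 7.44e-26). In females it was 4.12-fold higher in knockouts in the authors' deposited table (adjusted p = 5.19e-07). Averaged over the sexes, limma on log2(FPKM + 1) gave a difference of 2.16 with a standard error of 0.26 (adjusted p = 0.0380). Limma was also read for each sex, with a spread between pools shared by all 4 groups. Its adjusted p was 0.0860 in males and 0.289 in females, with a standard error of 0.37 in both. The unlike knockout female pools thus enter the male value too. Voom on the recovered reads gave an adjusted p of 0.0111 in males and 0.0688 in females. The reads behind Mpeg1 were 5492 and 4603 in knockout males, against 762 and 173 in control males. The gene lies on chromosome 19 at 12535268 to 12539775 (mm9, NM_010821).

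Lysozyme 2 and the first chain of C1q were higher in knockout males. Lyz2, the bacteria-digesting enzyme of macrophages and neutrophils, had 12.4 and 14.2 FPKM in knockout males, against 7.17 and 6.72 FPKM in control males. In females Lyz2 had 11.3 and 11.7 FPKM in knockouts, against 10.2 and 11.5 FPKM in controls, and the groups overlapped. The authors' deposited table gives Lyz2 as 1.88-fold higher in knockout males (adjusted p = 0.00463), and as 1.03-fold lower in females with the knockout (adjusted p = 1). In limma on log2(FPKM + 1) the male adjusted p of Lyz2 was 0.0475, and by voom 0.0263. Lyz2, and not Mpeg1, was the 1 member that limma called in males. The difference between the sexes in the knockout effect of Lyz2 was 0.76 on the log2 scale with a standard error of 0.14 in limma. Its unadjusted p of 0.00166 was the lowest of the members, and its adjusted p was 0.601, so the effects of the 2 sexes are not shown to differ. C1qa, which opens the classical complement pathway together with C1qb and C1qc, had 8.20 and 8.55 FPKM in knockout males, against 4.91 and 4.03 FPKM in control males. C1qa had 6.65 and 8.95 FPKM in knockout females, against 6.61 and 5.78 FPKM in control females. The authors' deposited table gives C1qa as 1.79-fold higher in knockout males (adjusted p = 0.0292), and as 1.14-fold higher in knockout females (adjusted p = 1). In limma on log2(FPKM + 1) the male adjusted p of C1qa was 0.158, and by voom 0.115. The knockout and control libraries of C1qa were far apart in males and nearly touched in females.

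In males, 3 of 34 members were called higher and 0 lower, all 3 from the macrophage class, where the authors' table calls 1.39% of all genes higher and 0.793% lower. All 13 macrophage members had a ratio above 1 in knockout males, beside 51.0% of the 12980 genes, and their median log2 ratio was 0.64 beside 0.01. The lowest of the 13 was 0.44, and 11 of the 13 had an unadjusted p under 0.05, all higher, beside 11.1% of the 12980 genes in either direction. In all 13 both knockout male libraries lay above both control male libraries, where 22.0% of the 12980 genes did so. The members of a class mark the same cell type and were read in the same pools, so here and below they are not independent observations. The knockout female pools, alike in genotype and sex, also differed from each other in the same direction in all 13. The stellate class had 6 of 9 members above 1 with a median of 0.36, and the endothelial class 6 of 11 with a median of 0.04. None of these was called, and both knockout male libraries lay above both control male libraries in 2 of 9 stellate and 1 of 11 endothelial members.

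In females, 1 of 34 members was called higher and 0 lower, where the authors' table calls 1.04% of all genes higher and 0.508% lower. The macrophage class had 11 of 13 members above 1, beside 50.6% of the 12980 genes, and their median log2 ratio was 0.18 beside 0.00. Without overlap between the groups, 6 of 13 were higher in knockout females, close to the 39.8% of all 12980 genes that were so on the FPKM scale. These were Mpeg1, C1qa, C1qb, Csf1r, Marco and Vsig4, which also did not overlap in males, where 11.6% of the 12980 genes were higher without overlap in both sexes. Once each library was scaled by the median of its ratios to the other libraries, 2 of the 13 were left in females, Mpeg1 and Marco, a share of 15.4% beside 21.9% of all genes. The stellate class had 8 of 9 members below 1 with a median of -0.26, and the endothelial class 9 of 11 with a median of -0.09, all uncalled. Both knockout female libraries lay below both control female libraries in 4 of 9 stellate and 2 of 11 endothelial members on FPKM, where 9.26% of the 12980 genes did so. On scaled FPKM they did so in 5 of 9 stellate members (Col1a2, Col3a1, Dcn, Pdgfrb and Reln) and 5 of 11 endothelial members (Pecam1, Kdr, Fcgr2b, Cdh5 and Oit3), where 20.3% of the 12980 genes did so.

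**Figure D1:**
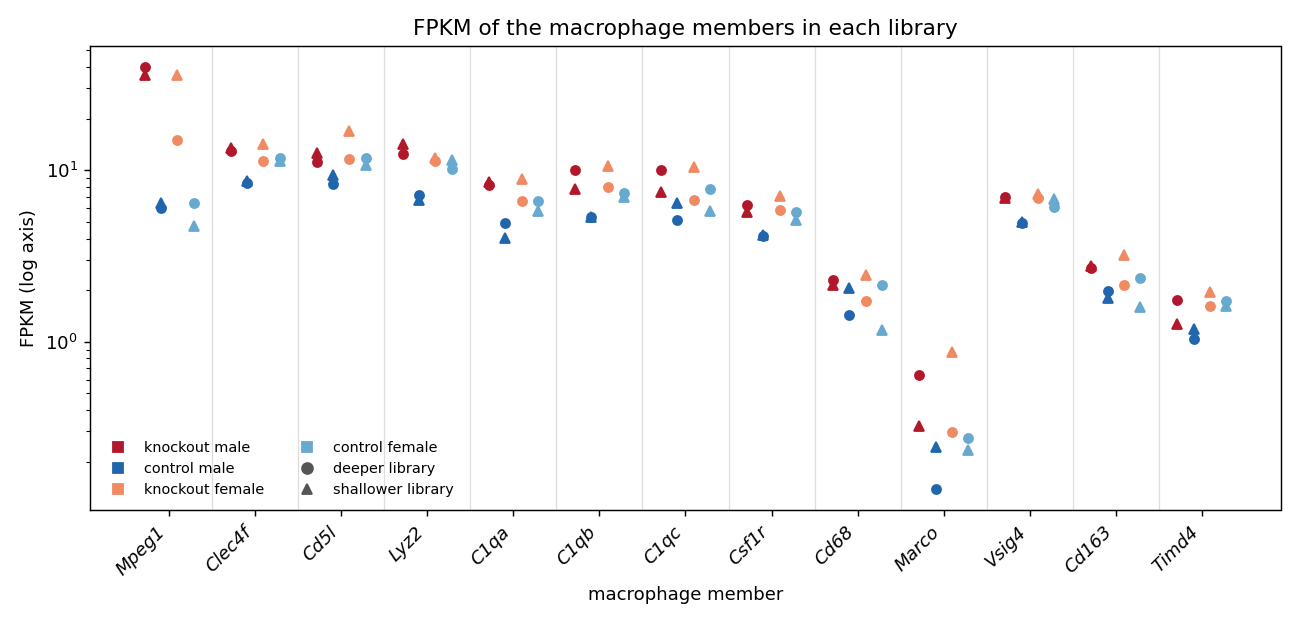
FPKM (log axis) of the 13 macrophage members in each of the 8 libraries, with colours for the 4 groups, circles for the deeper and triangles for the shallower library of a group. Mpeg1 stood at 39.97 and 35.97 FPKM in knockout males and 6.03 and 6.44 FPKM in control males, and the shallower knockout female library was highest for 11 of the 13 members.

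The most abundant Kupffer cell transcripts differed less than Mpeg1. Clec4f, a galactose-binding lectin found on Kupffer cells in mouse, had 13 and 13.5 FPKM in knockout males, against 8.40 and 8.68 FPKM in control males. Clec4f had 11.3 and 14.1 FPKM in knockout females, against 11.8 and 11.3 FPKM in control females. The authors' deposited table gives 1.56-fold higher in males (adjusted p = 0.133), and a log2 ratio of 0.00 in females. Control male libraries were the low ones, and the female groups overlapped. Cd5l, a secreted scavenger protein of macrophages, had 11.2 and 12.6 FPKM in knockout males, against 8.30 and 9.35 FPKM in control males. Cd5l had 11.6 and 16.9 FPKM in knockout females, against 11.7 and 10.7 FPKM in control females. The authors' deposited table gives Cd5l as 1.36-fold higher in knockout males (adjusted p = 0.720).

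The remaining macrophage members were not called. C1qb had 10.1 and 7.82 FPKM in knockout males, against 5.37 and 5.33 FPKM in control males, and 7.96 and 10.6 FPKM in knockout females, against 7.40 and 6.96 FPKM in control females. C1qc, whose gene lies between those of C1qa and C1qb on chromosome 4 (136445716 to 136448829 on mm9), had 9.97 and 7.46 FPKM in knockout males, against 5.14 and 6.43 FPKM in control males. All 3 chains thus had both knockout male libraries above both control male libraries. Csf1r, the receptor for the colony-stimulating factor on which macrophages depend, had 6.28 and 5.71 FPKM in knockout males, against 4.13 and 4.17 FPKM in control males, and 5.87 and 7.09 FPKM in knockout females, against 5.72 and 5.13 FPKM in control females. Vsig4, the complement receptor CRIg, had 6.94 and 6.89 FPKM in knockout males, against 4.91 and 4.96 FPKM in control males, and 6.93 and 7.27 FPKM in knockout females, against 6.11 and 6.82 FPKM in control females. The female groups of Csf1r and Vsig4 were separated by less than the gap between the knockout pools. Marco, a scavenger receptor for bacteria, was the lowest of the class, with 0.636 and 0.324 FPKM in knockout males, against 0.138 and 0.244 FPKM in control males, and 0.298 and 0.877 FPKM in knockout females, against 0.276 and 0.234 FPKM in control females. It had 3 to 41 reads per library, and its ratio of 2.89-fold in males was not called in the authors' deposited table (adjusted p = 0.481). The others, Cd68 (a lysosomal glycoprotein), Cd163 (the haemoglobin scavenger receptor) and Timd4 (a receptor for dying cells), lay between 1.04 and 3.20 FPKM in every library.

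The macrophage class was summed over its 13 members in each library. The sum was 125 and 119 FPKM in knockout males, against 59.0 and 61.4 FPKM in control males, a ratio of means of 2.03. In females it was 89.1 and 131 FPKM in knockouts, against 80.3 and 73.4 FPKM in controls, a ratio of 1.44. Mpeg1 made up 31.9% and 30.2% of the sum in knockout males, against 10.2% and 10.5% in control males. It made up 16.7% and 27.3% in knockout females, against 8.07% and 6.46% in control females. Without Mpeg1 the sum was 85.4 and 83.2 FPKM in knockout males, against 52.9 and 54.98 FPKM in control males, a ratio of 1.56. Without Mpeg1 it was 74.1 and 95.6 FPKM in knockout females, against 73.8 and 68.6 FPKM in control females, a ratio of 1.19. On this sum the knockout males lay within the range of the knockout females and above both control female libraries, and the control males lay below all other libraries. In bulk liver, more cells of a type, more RNA per cell, and transcription of a marker in other cells, hepatocytes included, cannot be told apart. This holds for Mpeg1 too, whose cell of origin was not tested.

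Mpeg1 therefore moved relative to its own class. Its FPKM divided by the summed FPKM of the other 12 members was 0.468 and 0.432 in knockout males, against 0.114 and 0.117 in control males. The same ratio was 0.201 and 0.375 in knockout females, against 0.0878 and 0.0690 in control females. Every knockout library lay above every control library on this measure, which does not depend on the library total. Within knockout females, the shallower pool was above the deeper one in all 13 macrophage members, with a median of 1.34-fold. Of the 12980 genes, 48.5% were higher in that pool, and the median ratio of the pools was 0.997 over the 11 endothelial and 0.984 over the 9 stellate members. The deeper knockout female pool, which had the lower macrophage values, had more of both targeted genes, with 0.499 FPKM of Stat5a and 1.77 FPKM of Stat5b, against 0.120 and 1.11 FPKM in the shallower one. The part of the remaining Stat5 transcripts in the macrophage values was not tested. In knockout males the shallower pool was higher in 5 of 13 macrophage members.

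**Figure D2:**
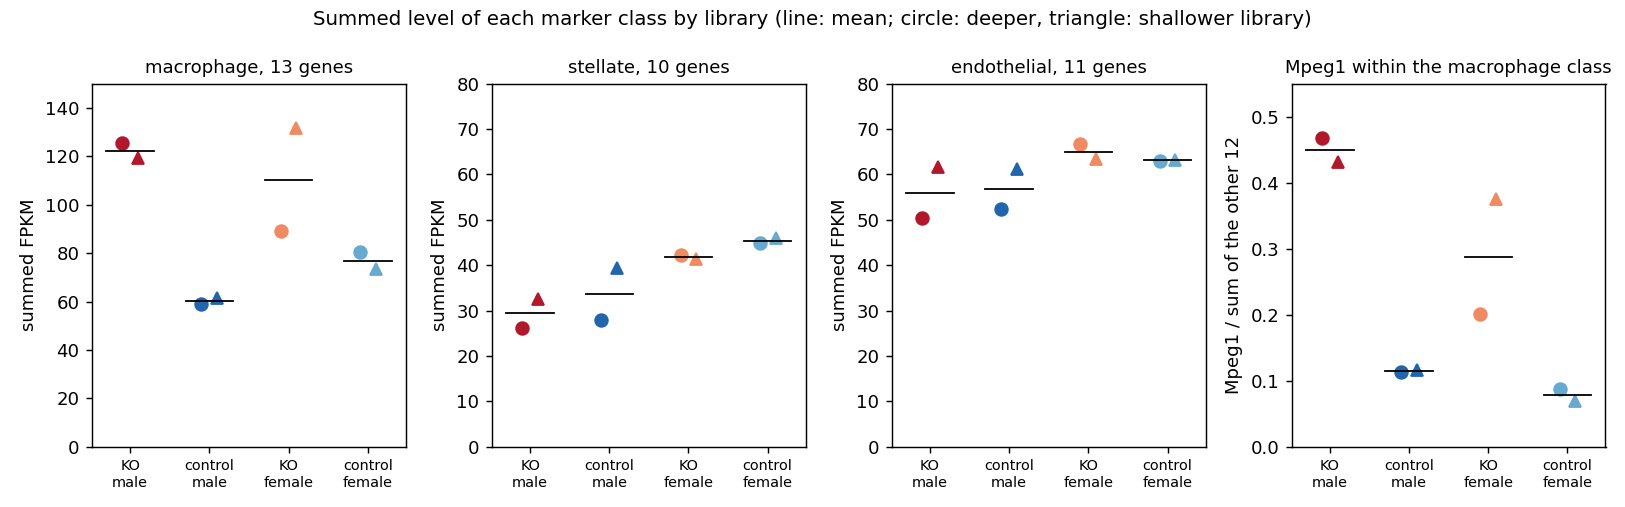
Summed FPKM of the 3 marker classes in each library (first 3 panels) and Mpeg1 FPKM divided by the summed FPKM of the other 12 macrophage members (last panel), with the group mean as a line. The macrophage sum was 125 and 119 FPKM in knockout males against 59.0 and 61.4 FPKM in control males, while the endothelial sums of the same groups overlapped.

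Endothelial transcripts were not called between genotypes. Their sum was 50.4 and 61.5 FPKM in knockout males, against 52.3 and 61.2 FPKM in control males, a ratio of 0.986. It was 66.8 and 63.3 FPKM in knockout females, against 62.9 and 63.2 FPKM in control females, a ratio of 1.03. None of the 11 members was called in any of the 4 comparisons of the authors' deposited table. In limma averaged over the sexes 0 of 11 were called and 0 had an unadjusted p under 0.05. Voom on the recovered reads gave 0 calls and 2 lower at an unadjusted p under 0.05, Kdr and Oit3, where 1056 of 12980 genes were so. On scaled FPKM, 1 of 11, Oit3, was lower in knockouts without overlap in both sexes, where 7.72% of the 12980 genes were so. The macrophage sum divided by the endothelial sum of the same library was 2.49 and 1.94 in knockout males, against 1.13 and 1.004 in control males. It was 1.33 and 2.08 in knockout females, against 1.28 and 1.16 in control females, and in both sexes the groups did not overlap. Without Mpeg1 the ratio was 1.70 and 1.35 in knockout males, against 1.01 and 0.899 in control males. Without Mpeg1 it was 1.11 and 1.51 in knockout females, against 1.17 and 1.09 in control females, so that the male groups stayed apart and the female groups overlapped.

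The 3 highest endothelial members were an Fc receptor, a lectin and a scavenger receptor. Fcgr2b, the inhibitory Fc receptor that clears immune complexes in sinusoids, had 8.38 and 11.9 FPKM in knockout males, against 8.85 and 13.5 FPKM in control males. Fcgr2b had 11.01 and 10.5 FPKM in knockout females, against 11.4 and 11.1 FPKM in control females. Its male groups overlapped and its female groups lay side by side. Clec4g, the sinusoidal lectin LSECtin, had 8.41 and 12.3 FPKM in knockout males, against 9.67 and 10.5 FPKM in control males. Clec4g had 13.5 and 11.5 FPKM in knockout females, against 9.02 and 11.5 FPKM in control females. Stab2, the scavenger receptor stabilin-2, which clears hyaluronan, had 6.14 and 7.55 FPKM in knockout males, against 5.97 and 7.13 FPKM in control males, and 8.53 and 7.58 FPKM in knockout females, against 7.50 and 8.06 FPKM in control females. The authors' log2 ratios of all 11 lay between -0.30 and 0.47 in males and between -0.35 and 0.25 in females, and the highest in both sexes was that of Lyve1, a hyaluronan receptor with as few as 4 reads in a control male library. Kdr, the main receptor for vascular endothelial growth factor, had 6.55 and 6.53 FPKM in knockout females, against 7.59 and 7.56 FPKM in control females. The authors' deposited table gives Kdr as 1.27-fold lower in knockout females, with an unadjusted p of 0.0504 and an adjusted p of 0.879.

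Stellate transcripts were led by decorin, a small proteoglycan that binds collagen fibrils. Dcn had 15.5 and 20.8 FPKM in knockout males, against 19.2 and 26.1 FPKM in control males, and 27.9 and 27.0 FPKM in knockout females, against 28.6 and 31.2 FPKM in control females. Reln, a secreted matrix glycoprotein made by quiescent stellate cells, had 4.48 and 5.33 FPKM in knockout males, against 4.67 and 6.57 FPKM in control males. Reln had 6.57 and 6.20 FPKM in knockout females, against 7.12 and 6.30 FPKM in control females. On this scale the genotypes of both genes overlapped or lay next to each other, and neither was called. On scaled FPKM, Dcn was lower in knockouts without overlap in both sexes, where 7.72% of the 12980 genes were so, and Reln in females. The class summed to 26.2 and 32.6 FPKM in knockout males, against 28.0 and 39.4 FPKM in control males, and to 42.3 and 41.3 FPKM in knockout females, against 44.9 and 45.9 FPKM in control females.

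Markers of activated stellate cells were low in every library. Acta2, the smooth muscle actin gained on activation, had 0.135 and 0.422 FPKM in knockout males, against 0.120 and 0.314 FPKM in control males, with 5 to 32 reads over the 8 libraries. Timp1, an inhibitor of matrix metalloproteinases, had 0 reads in both knockout male libraries and at most 2 reads elsewhere. The fibrillar collagen gene Col1a1 had 0.813 and 0.462 FPKM in knockout males, against 0.153 and 0.447 FPKM in control males. In the authors' deposited table it was 2.62-fold higher in knockout males (adjusted p = 0.236). In FPKM its control male pools differed nearly as much from each other as the group means did, and as a fold they differed more. In females Col1a1 had 0.483 and 0.642 FPKM in knockouts, against 0.694 and 0.509 FPKM in controls. The female groups overlapped, and the authors' deposited table gives Col1a1 there as 1.21-fold lower (adjusted p = 1).

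**Figure D3:**
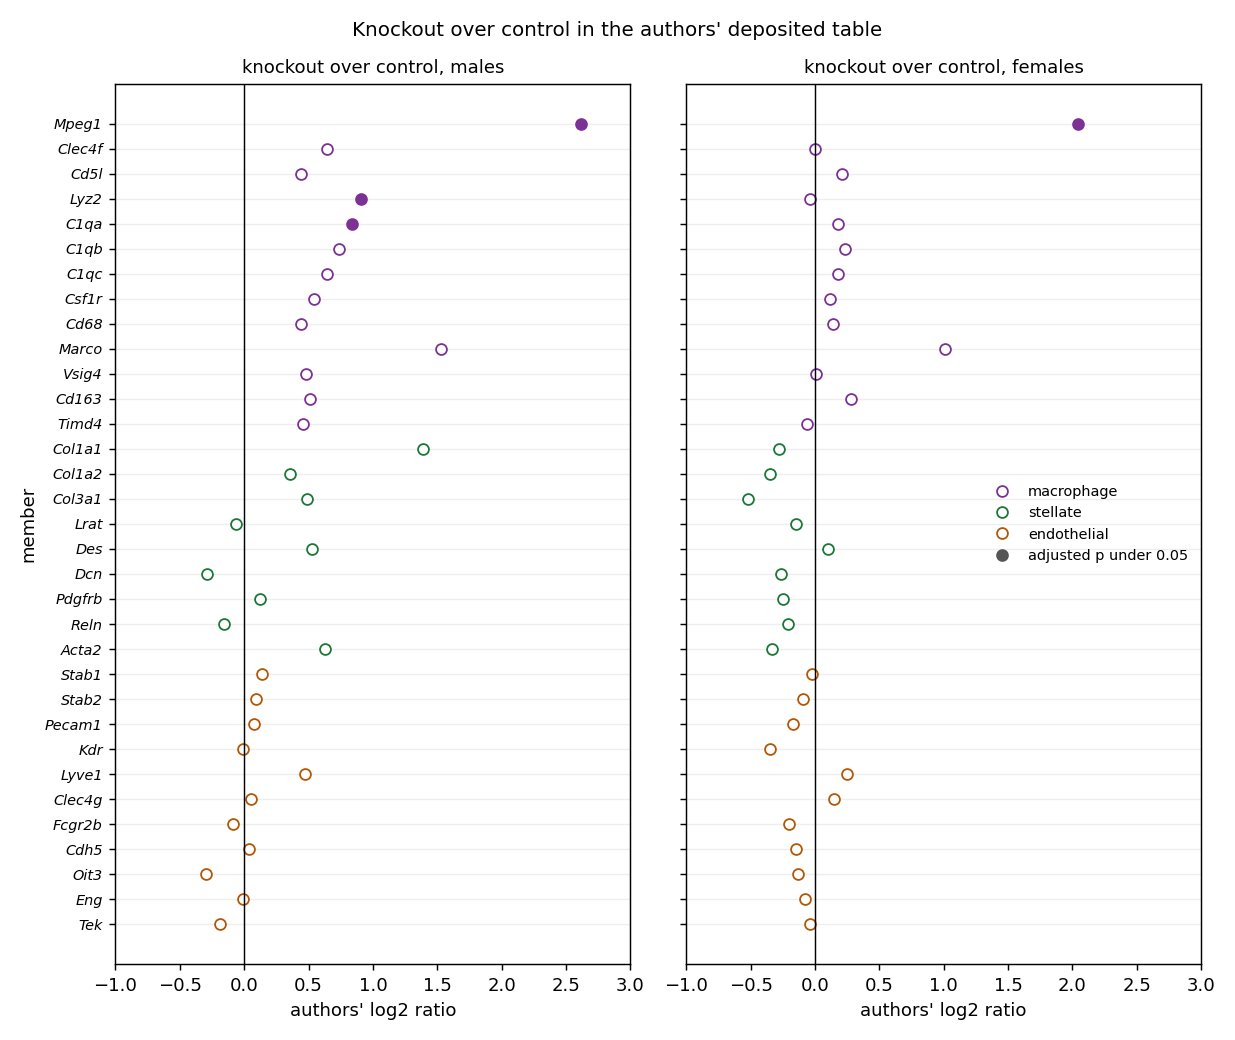
The authors' log2 ratio of knockout over control for 33 members (Timp1, at 0 reads in both knockout male libraries, is not drawn), males in the left and females in the right panel, with filled points for an adjusted p under 0.05. All 13 macrophage members lay to the right of 0 in males, with 3 filled, and Mpeg1 alone was filled in females.

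Between the sexes the called members were stellate. In control livers, 2 of 34 members were called lower in males and 0 higher, where the authors' table calls 0.785% of all genes lower and 0.686% higher. Col3a1, a fibrillar collagen gene, had 0.851 and 1.80 FPKM in control males, against 2.61 and 2.58 FPKM in control females. The authors' deposited table gives Col3a1 as 2.36-fold lower in control males (adjusted p = 0.00173), and the shallower control male pool stood nearer to the female libraries than to the deeper control male pool. In limma on log2(FPKM + 1) the adjusted p was 0.317, and by voom 0.0223. Lrat, the enzyme that makes retinyl esters for vitamin A storage, had 1.61 and 1.66 FPKM in control males, against 2.83 and 2.35 FPKM in control females. The authors' deposited table gives Lrat as 1.73-fold lower in control males (adjusted p = 0.0256). Its adjusted p was 0.241 in limma on log2(FPKM + 1) and 0.0421 by voom. Neither pair of groups overlapped.

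Among knockout livers, 1 of 34 members was called lower in males and 0 higher, where the authors' table calls 0.479% of all genes lower and 0.533% higher. That member was again Lrat, with 1.53 and 1.60 FPKM in knockout males, against 2.67 and 2.47 FPKM in knockout females. The authors' deposited table gives Lrat as 1.61-fold lower in males with the knockout (adjusted p = 0.0490). Its adjusted p was 0.446 in limma on log2(FPKM + 1) and 0.0570 by voom. Lrat was thus lower in males in both genotypes, by tests that share no library, and its genotype by sex interaction in limma was -0.03 with a standard error of 0.15. Col3a1 had 1.72 and 1.67 FPKM in knockout males, against 1.92 and 2.06 FPKM in knockout females, a ratio of 1.15-fold lower (adjusted p = 1) in the authors' deposited table. The interaction of Col3a1 in limma was 0.51 with a standard error of 0.27 (adjusted p = 0.843), and by voom 1.20 with a standard error of 0.28 (adjusted p = 0.645), so its sex differences in the 2 genotypes are not shown to differ.

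Below the threshold, most ratios of all 3 classes were on the female side in controls, and those of the stellate and endothelial classes in knockouts. In controls, 1 of 13 macrophage, 0 of 9 stellate and 0 of 11 endothelial members had a male over female ratio above 1, beside 47.7% of the 12980 genes, with median log2 ratios of -0.51, -0.74 and -0.36 beside -0.02. In knockouts, 7 of 13 macrophage, 2 of 9 stellate and 0 of 11 endothelial members had a ratio above 1, beside 51.8% of the 12980 genes. The medians were 0.06, -0.25 and -0.18 beside 0.01. On FPKM scaled by the median of ratios, both knockout male libraries lay below both knockout female libraries in 9 of 11 endothelial, 7 of 9 stellate and 0 of 13 macrophage members, where 19.4% of the 12980 genes did so. They lay above them in 1 of 13 macrophage members, Lyz2, where 20.4% of the 12980 genes did so. On the same scale, both control male libraries lay below both control female libraries in 6 of 11 endothelial, 8 of 9 stellate and 10 of 13 macrophage members, where 21.4% of the 12980 genes did so. The control male libraries enter both this comparison and the genotype comparison in males, so the low macrophage values of control males count in each.

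**Figure D4:**
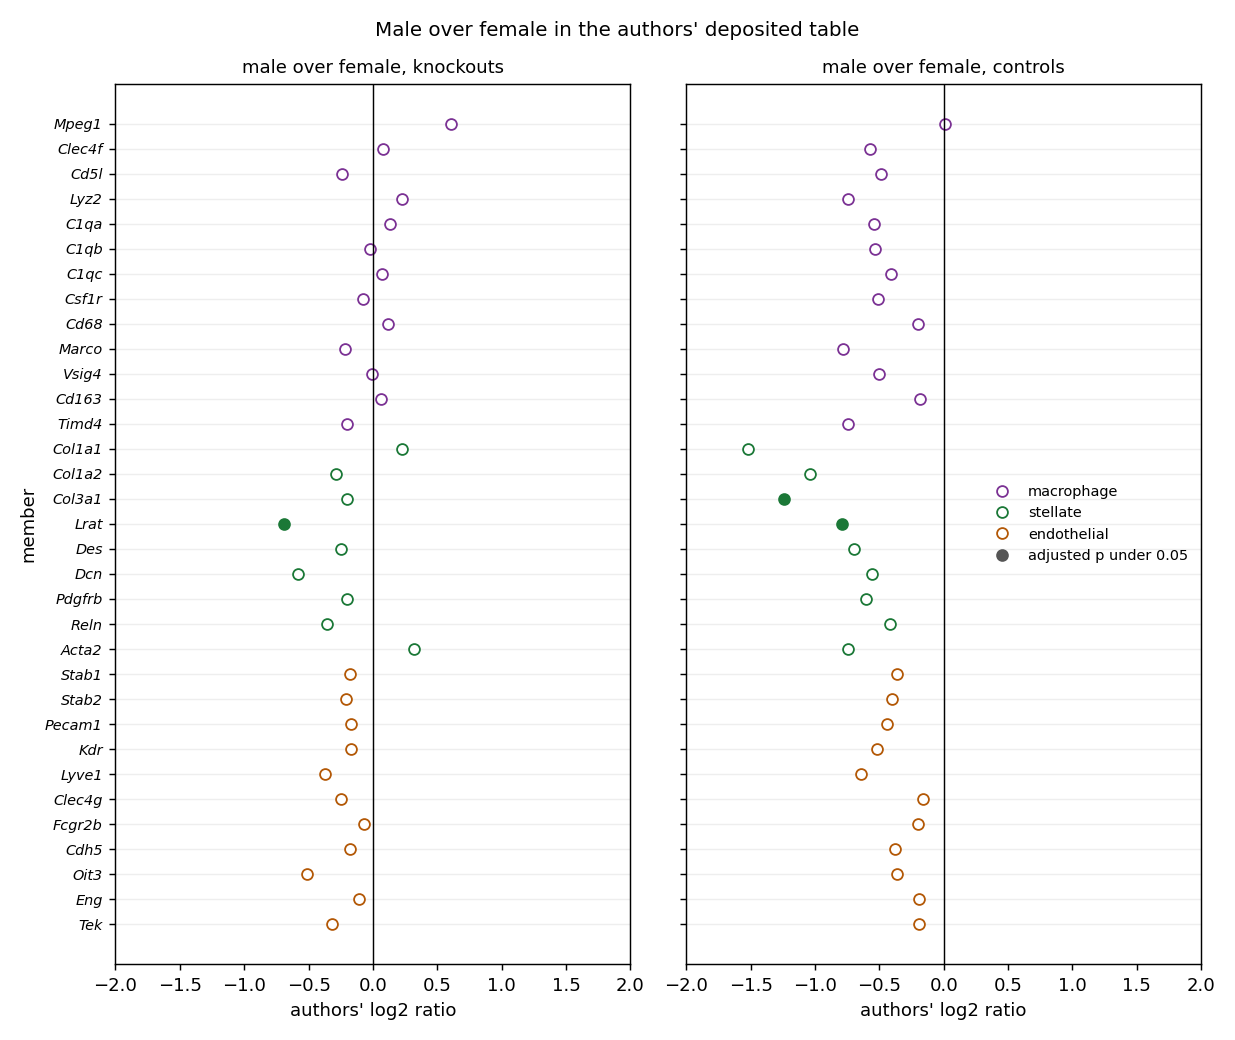
The authors' log2 ratio of male over female for 33 members, knockouts in the left and controls in the right panel, with filled points for an adjusted p under 0.05. Lrat was filled in both panels and Col3a1 in controls, and all 11 endothelial members lay left of 0 in both.

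Between the 2 pools of control males, all 9 stellate members were higher in the shallower library, with a median of 1.74-fold, beside a median of 1.13-fold over the 12980 genes. The deeper control male library was the lowest of the 8 for 6 of 9 stellate members. The stellate values of control males, Col3a1 among them, thus rest on a pair of unlike pools. Without the shallower control male library, the stellate sum of control males over control females was 0.617, and without the deeper one it was 0.867.

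Averaged over both sexes, limma called 1 of 34 members, Mpeg1, where it called 0.578% of 18004 genes. The call was lost when any 1 of the control libraries or of the knockout male libraries was left out, with adjusted p of 0.0994 to 0.215, and held without either knockout female library, with 0.00839 and 0.0184. The Mpeg1 difference was 1.85 to 2.46 on the log2 scale throughout. At an unadjusted p under 0.05 it had 9 of 13 macrophage members higher and 0 lower, beside 10.1% and 3.14% of the 18004 genes. The genotype by sex interaction called 0 of 34 members by limma and 0 by voom, where limma called 0.0111% of 18004 genes and voom 0 of 12980. At an unadjusted p under 0.05, limma had 3 members, Lyz2, Clec4f and Vsig4, all with the larger knockout effect in males, beside 5.48% of the 18004 genes. Voom had 6 members, beside 5.10% of the 12980 genes, and these were Lyz2, Clec4f, C1qa and the collagen genes Col1a1, Col1a2 and Col3a1, all with a positive interaction.

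Other genes of the same cell types were read from separate lists. Of 30 further macrophage genes, the authors' table called 2 higher and 1 lower in knockout males and 0 in knockout females. It calls 1.39% of all genes higher and 0.793% lower in males, and 1.04% and 0.508% in females. These shares also stand beside the genotype counts of the lists below. The macrophage list had 26 of 28 measured genes with a ratio above 1 in males, with a median log2 ratio of 0.52, beside 51.0% of the 12980 genes. In females 16 of 28 were so, with a median of 0.08, beside 50.6%. Its genes were read in the same pools as the members, so the list is not independent of them. Its summed level was 132.1 and 137.1 FPKM in knockout males, against 114 and 133 FPKM in control males, a ratio of means of 1.09. That of the 13 members was 2.03, and 1.56 without Mpeg1. Ctsb led the sum of the list, with 40.4 and 49.2 FPKM in knockout males, against 34.4 and 34.3 FPKM in control males. Slc40a1, next in level, was lower in knockout males. The ratio of the sum thus leans on its highest genes. The sum was 137.4 and 151.4 FPKM in knockout females, against 142 and 124 FPKM in control females, also a ratio of 1.09. Il18bp, which neutralises interleukin 18, had 7.07 and 4.47 FPKM in knockout males, against 2.03 and 2.30 FPKM in control males, 2.72-fold higher in the authors' deposited table (adjusted p = 0.000626). Cd14, the lipopolysaccharide co-receptor, had 1.04 and 0.734 FPKM in knockout males, against 0.268 and 0.292 FPKM in control males, 3.17-fold higher in the authors' deposited table (adjusted p = 0.0422). Slc40a1, the iron exporter ferroportin, had 17.7 and 19.2 FPKM in knockout males, against 28.6 and 34.2 FPKM in control males. The authors' deposited table gives Slc40a1 as 1.67-fold lower (adjusted p = 0.0263). Cd14 and Slc40a1 are also transcribed in hepatocytes. The classical macrophage marker Emr1, which encodes F4/80, had 2.71 and 2.005 FPKM in knockout males, against 1.63 and 1.64 FPKM in control males, and was not called.

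Of 12 genes of monocyte-derived macrophages, 6 had at least 10 reads in at least 2 libraries, and 0 of the 12 were called in either sex. Their summed level was 6.61 and 7.75 FPKM in knockout males, against 5.37 and 8.68 FPKM in control males, and 9.61 and 9.07 FPKM in knockout females, against 9.24 and 9.996 FPKM in control females. Ccr2, the chemokine receptor of incoming monocytes, had 0.440 and 0.264 FPKM in knockout males, against 0.182 and 0.315 FPKM in control males. Its groups overlapped, as did the sums of the list in both sexes.

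Of 22 further stellate genes 0 were called between genotypes. Of 31 matrix genes 1 was called higher in knockout males, Col15a1, a basement membrane collagen gene. It had 1.84 and 1.14 FPKM in knockout males, against 0.600 and 0.668 FPKM in control males, 2.39-fold higher in the authors' deposited table (adjusted p = 0.00573). Of 35 further endothelial genes 1 was called higher in knockout males, Icam1, an adhesion molecule for leukocytes that hepatocytes also make. Icam1 had 2.41 and 1.99 FPKM in knockout males, against 0.946 and 1.34 FPKM in control males, 2.05-fold higher in the authors' deposited table (adjusted p = 0.0337).

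Ligands of the member receptors were read for Csf1r, Kdr, Tek and Pdgfrb among others, and 1 of 19 was called between genotypes. Angpt1, the activating ligand of the endothelial receptor Tek, had 0.943 and 0.408 FPKM in knockout males, against 0.0795 and 0.0374 FPKM in control males. The authors' deposited table gives Angpt1 as 9.48-fold higher (adjusted p = 5.28e-06), on 129 and 52 reads against 10 and 1. In females Angpt1 had 0.244 and 0.502 FPKM in knockouts, against 0.194 and 0.154 FPKM in controls, and was not called. Tek itself had 1.38 and 1.74 FPKM in knockout males, against 1.55 and 2.13 FPKM in control males, and its groups overlapped.

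Between the sexes, some genes of the separate lists were called. In controls, Cfp (properdin), Ank3, Postn and Cd3e were lower in males and Col5a3 was higher. Among knockouts, Colec10, a collectin made by stellate cells, was lower in males, and Col5a3 and Spp1 were higher. Col5a3, a minor fibrillar collagen gene, had 0.524 and 0.301 FPKM in knockout males, against 0.135 and 0.167 FPKM in knockout females. In controls Col5a3 had 0.242 and 0.371 FPKM in males, against 0.0711 and 0.0874 FPKM in females. Col5a3 was 2.81-fold higher in knockout males and 3.35-fold higher in control males in the authors' deposited table, with adjusted p of 0.0155 and 0.00355, where 6 of 26 matrix genes had a ratio above 1 in each genotype.

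Markers of other cells were read beside these results. At least 10 reads in at least 2 libraries were found for 5 of 10 dendritic, 6 of 18 lymphocyte and 2 of 11 neutrophil genes. The same held for 5 of 12 bile duct and 5 of 8 mesothelial genes. Of 10 dendritic cell genes 0 were called, and their sum, mostly of Bst2, a membrane protein that many cell types make, was 45.1 and 35.9 FPKM in knockout males, against 24.3 and 22.7 FPKM in control males, and 30.8 and 41.6 FPKM in knockout females, against 25.1 and 17.7 FPKM in control females. The 18 lymphocyte genes summed to 4.16 and 4.13 FPKM in knockout males, against 1.97 and 2.65 FPKM in control males, and to 3.92 and 5.07 FPKM in knockout females, against 4.17 and 4.06 FPKM in control females, with 0 called between genotypes. The 11 neutrophil genes, a list without Lyz2, summed to 2.46 and 3.09 FPKM in knockout males, against 1.38 and 3.14 FPKM in control males, with 0 called. Of 12 bile duct genes 1 was called, Spp1 (osteopontin), which had 37.1 and 28.2 FPKM in knockout males, against 2.13 and 5.94 FPKM in control males. The authors' deposited table gives Spp1 as 9.06-fold higher in knockout males (adjusted p = 3.78e-15). The 5 measured bile duct genes had a median log2 ratio of 0.05 in males, so the call describes Spp1 and not the list. Of 20 hepatocyte genes 1 was called lower in knockout males, Serpina1a, and 0 in knockout females, with a sum of 19863 and 22046 FPKM in knockout males, against 26896 and 22412 FPKM in control males. The 14 cell cycle genes had 0 called, with 14.6 and 9.24 FPKM in knockout males, against 9.27 and 9.83 FPKM in control males, and the 8 mesothelial genes 0 called, with overlapping sums in males. The part of these other cells in the macrophage values was not tested.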

How the data were processed

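Liver RNA was sequenced after depletion of ribosomal RNA, in stranded libraries, per the labels' protocols. TopHat2, featureCounts and edgeR, with mm9, are named in the submitters' processing notes. No version, annotation or filter is recorded there. The deposited table gives the mean FPKM of each group, and for 4 comparisons a normalized ratio and p-values, raw and adjusted, from edgeR, per the file headers. The adjusted p-values were checked to be Benjamini-Hochberg values over all 24197 genes, within 2.5e-08.

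Reads and FPKM of single libraries were recovered from the mean FPKM, each a sum of whole reads over length and library total. All 18004 genes with a value above 0 were solved, and recomputed means differed by at most 2.2e-11. The recovery and the fit below were tested on simulated data. Recovered libraries were tied to no pool number or code. No single-sample columns were left unused (0).

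The authors' calls lead. Limma 3.58.1 (R 4.3.3) with trend = TRUE was fitted on log2(FPKM + 1) of all 8 libraries and 18004 genes, on which changes of low genes come out too small. Voom used genes with at least 10 reads in at least 2 libraries. SDs and ranges cover 2 libraries per group.

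The members and lists were chosen with earlier results of these data known. Values by library are given for members called in any comparison, those without overlap between genotypes in both sexes, and the 3 highest of each class. From other lists, called genes are named. C1qc, Kdr, Lyve1, Tek, Col1a1, Acta2, Timp1, Emr1, Ctsb, Ccr2 and Bst2 were named after their values were seen.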

Additional observations from a re-analysis of the deposited data

How the results depend on the processing

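No paired analysis was possible because the recovered libraries cannot be tied to the pool numbers in the titles. Among the counts of members called, the male genotype count of 3 was 1 with limma on log2(FPKM + 1) and 1 at 2-fold or more, and limma's 1 was 0 with any 1 library left out. The female count of 1 was 0 with limma and 0 with voom, and 0 to 1 with a library left out of limma. The control male over control female count of 2 was 0 with limma, 1 at an adjusted p under 0.01 and 1 at 2-fold or more. It was 4 with p adjusted over the 12980 genes with reads, where Col1a1 (0.0283) and Lyz2 (0.0359) joined, both lower in control males. The knockout male over knockout female count of 1 was 0 with limma, 0 with voom, 0 at an adjusted p under 0.01 and 0 at 2-fold or more. In both comparisons of the sexes limma, at 0 with all libraries, was also at 0 with any 1 left out, and the authors' own test was not rerun without a library. The averaged count of 1 was 2 among genes with a mean FPKM of at least 0.1, and 0 to 1 with a library left out. The interaction count was 0 in every setting run. The cause of these changes was not tested. Adjusting over genes with reads, and leaving a library out of the tests of single comparisons, were chosen after seeing the data. Of the summed levels, the macrophage ratio of knockout over control males was 1.56 without Mpeg1. With libraries scaled by the median of ratios, control males over control females was 0.717 for macrophage members. With the same scaling, knockout over control females was 0.836 for stellate and 0.937 for endothelial members, below 1 where unscaled FPKM gave 1.03. The other alternatives moved the sums by less than the spread between pools. The shallower control male library, with 2288033 reads in genes, limits the precision of the male comparisons and of every low member.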
